A study of Mus musculus with 8 samples.

Results

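The regions described here are the wild-type E2F3 peaks that also carried a HELLS peak and an H3K27me3 peak in wild-type mouse embryonic fibroblasts. An E2F3 peak was taken when it shared at least 1 bp with a peak of both other wild-type lists. Of the 8889 wild-type E2F3 peaks, 433 met this rule, or 4.87% (exact 95% interval 4.43 to 5.34), and they are called co-listed sites below. The sites were chosen by the wild-type peak calls of the 3 antibodies, so all wild-type levels are given as a description. Reads from E2f3-null cells were not used in the choice.

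E2F3 belongs to the E2F transcription factors, which bind promoters of cell cycle genes and are restrained by the retinoblastoma protein. HELLS, also called LSH, is a chromatin remodelling helicase of the SNF2 family that is needed for normal DNA methylation in mouse cells. H3K27me3 is trimethylation of lysine on histone H3, written by Polycomb repressive complex 2 and usually found on silent genes, often over CpG-rich promoters. In most accounts E2F binding marks active cell cycle promoters, whereas H3K27me3 marks silent developmental genes, so these sites carry labels that are usually described apart.

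Chromatin was immunoprecipitated from E2f3-/- and wild-type mouse embryonic fibroblasts of E13.5 using an E2F3, a HELLS or an H3K27me3 antibody, or IgG. There was 1 library for each genotype and antibody, with no replicate, so every comparison sets 1 library against another and no p-value is given. The sources used here do not give how many embryos the cells came from, or which part of E2f3 was deleted.

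Distinct reads in the 6 ChIP libraries numbered 3799779 to 5640555, and the fewest were in the E2f3-null H3K27me3 library. The IgG files of both genotypes were identical, with 7219419 distinct reads, and served as 1 control for every enrichment over IgG. Per the file headers, the controls of the peak calls were smaller, with 3791438 tags for the E2f3-null and 3444066 for the wild-type lists. The authors listed 3314 E2F3-antibody peaks in E2f3-null cells and 8889 in wild type. At 6514 of the 8889 the reads were called lower in E2f3-null cells by the rule given below, but wild-type reads chose these peaks, so this count is no independent check of the genotype labels. Read counts were scaled by the reads outside all peaks. All intervals are exact at the 95% level and describe counting error alone.

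The E2F3 peaks at co-listed sites had a median length of 754 bp (quartiles 537 and 947), against 669 bp over all E2F3 peaks. The authors' E2F3 score, which is 10 times the negative log10 of the peak's p-value, had a median of 150.4 at these sites and 128.7 over all E2F3 peaks. The sites lay on every autosome and on chromosome X. Chromosome 2 held the most, 44 of its 702 E2F3 peaks or 6.27% (4.59 to 8.32). Chromosome X held 5 of 176, or 2.84% (0.929 to 6.50). For 24 of the 433 (5.54%) another co-listed site lay within 10 kb.

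The E2F3 and HELLS summits nearly coincided. The median distance between the E2F3 summit and the summit of the best-scoring HELLS peak was 80 bp (quartiles 28 and 203), and 351 of 433 pairs lay within 250 bp. At the 1211 E2F3 peaks with HELLS but no H3K27me3 peak this median was 103 bp. The H3K27me3 peaks were longer, with a median of 1231 bp, and their summits lay a median of 173 bp from the E2F3 summit. In 293 sites (67.7%) the H3K27me3 peak covered the whole E2F3 peak.

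The HELLS peaks at these sites were weak by the authors' own measure. Their median score was 70.64, and 61 of 433 had a false discovery rate of 5% or less in the authors' table. The 61 sites that passed this rate in all 3 wild-type lists had a median HELLS score of 67.4. At the other 372 it was 74.5, so the rate did not pick the higher HELLS scores. At E2F3 peaks with HELLS but no H3K27me3 the median score was 69.74, and 178 of 1211 passed that rate. The H3K27me3 peaks had a median score of 311.1 (quartiles 98.85 and 939.4), and all 433 passed it.

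The 433 sites held 17.3% of the 2489 wild-type HELLS peaks (15.8 to 18.8) and 2.51% of the 17064 wild-type H3K27me3 peaks (2.28 to 2.75). H3K27me3 peaks lay on 26.3% of E2F3 peaks that had a HELLS peak (24.2 to 28.5) and on 19.3% of E2F3 peaks without HELLS (18.4 to 20.2). The lists of E2f3-null cells, which had no part in the choice of sites, gave 13.8% (12.7 to 15) and 5.80% (5.18 to 6.47) for the same 2 shares over the wild-type E2F3 peaks. The 3 lists of a genotype were called against the same control, and no test between classes of peaks is given because the peaks share their libraries.

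Reads at these sites differed most between sites for H3K27me3. The E2f3-null E2F3-antibody library held a median of 18 reads per site (0 to 67), against 40 (6 to 222) in wild type. For HELLS the median was 29 reads in E2f3-null cells (0 to 109) and 27 in wild type (1 to 100). For H3K27me3 it was 15 in E2f3-null cells (0 to 289) and 55 in wild type (2 to 616). IgG held a median of 12 reads (1 to 51). Only the HELLS medians were similar in the 2 genotypes.

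**Figure D1:**
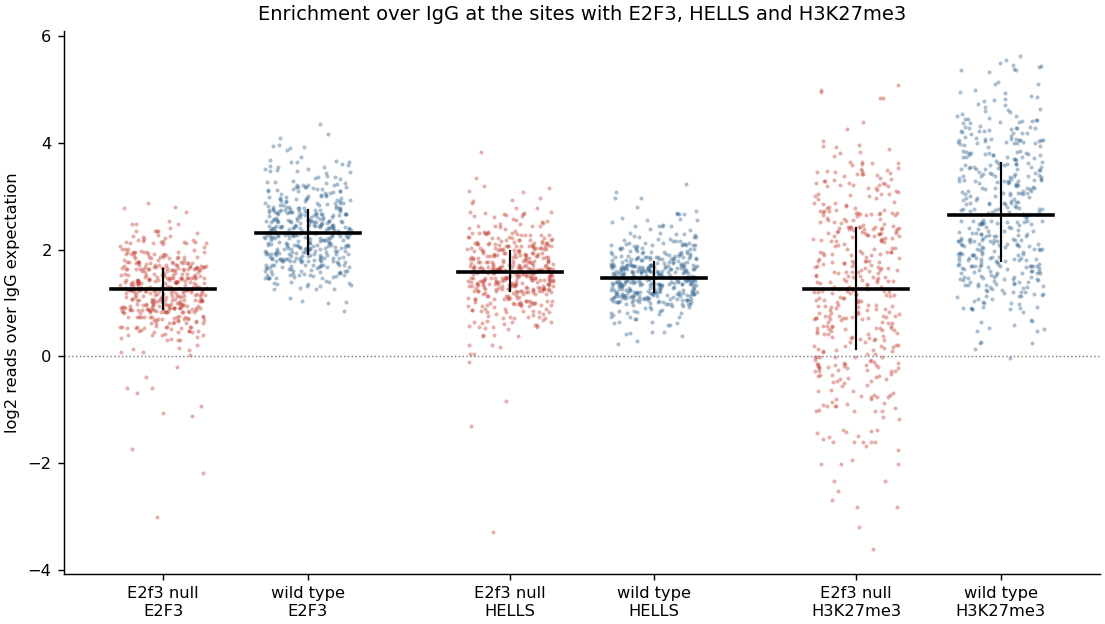
Each point is 1 of the 433 co-listed sites, and the y axis is log2 of the reads over the number expected from IgG after scaling. Red points are E2f3-null and blue points wild-type libraries, thick bars mark medians and thin vertical bars the quartiles. The E2f3-null H3K27me3 points spread on both sides of 0 and have a median of 1.27, whereas nearly all HELLS points of both genotypes lie above 0.

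In E2f3-null cells the median stood above the IgG expectation for all 3 antibodies. HELLS had a median log2 enrichment of 1.59 in E2f3-null cells (quartiles 1.23 and 1.98) and 1.48 in wild type. In E2f3-null cells 429 of 433 sites (99.1%) lay above the IgG expectation for HELLS, against 86.7% of all E2F3 peaks. The share was nearly the same, 98.6%, at E2F3 peaks with HELLS but no H3K27me3 peak. The E2F3 antibody had 1.26 in E2f3-null cells and 2.31 in wild type. For it 422 sites (97.5%) lay above IgG in E2f3-null cells, against 85.7% of all E2F3 peaks. E2F3 peaks with HELLS but no H3K27me3 peak had nearly the same share, 97.4%. H3K27me3 had 1.27 in E2f3-null cells and 2.65 in wild type. For it 332 sites (76.7%) lay above IgG in E2f3-null cells, against 19.7% of all E2F3 peaks. Most of the latter had no wild-type H3K27me3 peak, and those with one but no HELLS peak had 73.0%.

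The same E2f3-null libraries gave lower medians over all E2F3 peaks. There the median log2 enrichment in E2f3-null cells was 0.97 for HELLS, 0.81 for the E2F3 antibody and -1.43 for H3K27me3. E2F3 peaks with HELLS but no H3K27me3 peak had 1.51 for HELLS and 1.19 for the E2F3 antibody, close to the co-listed sites. E2F3 peaks with H3K27me3 but no HELLS peak had 1.01 for H3K27me3. The IgG density was similar in all classes, with a median of 16.9 reads per kb at co-listed sites and 18.96 over all E2F3 peaks.

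The E2F3-antibody library of null cells gave another level to set HELLS against. Over that library, HELLS of the same genotype had a median log2 excess of 0.32 at co-listed sites (quartiles -0.018 and 0.66), with 318 of 433 sites above 0. The excess was 0.28 at E2F3 peaks with HELLS but no H3K27me3, and 0.15 over all E2F3 peaks. How much of the HELLS signal any antibody would give at these sites was not tested.

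**Figure D2:**
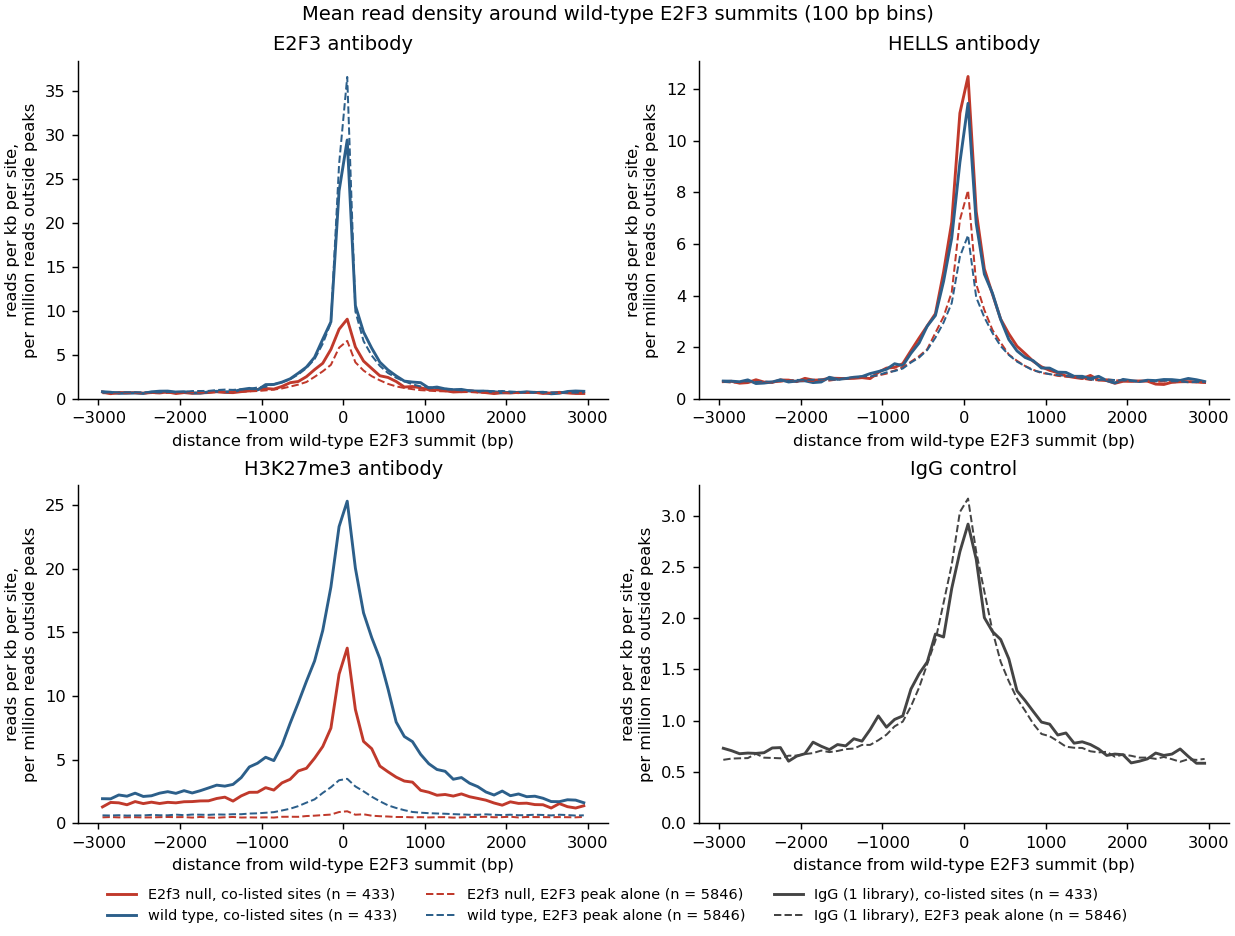
Mean reads per kb per site, per 1000000 reads outside peaks, in 100 bp bins by distance from the wild-type E2F3 summit. Solid lines are the 433 co-listed sites and dashed lines the 5846 E2F3 peaks with neither HELLS nor H3K27me3 peak, red is E2f3 null, blue is wild type and grey is IgG. All 7 libraries are highest within 100 bp of the summit at co-listed sites, and the H3K27me3 lines show no dip there.

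The signal of every antibody was highest at the E2F3 summit itself. The ratio of read density within 250 bp of the summit to that at 1000 to 2000 bp measured how concentrated the reads were. The E2F3 antibody had a ratio of 8.15 in E2f3-null cells (7.79 to 8.53) and 17.2 in wild type (16.5 to 17.8), where the summit was placed by the same reads. HELLS had 10.5 in E2f3-null cells (10.1 to 10.9) and 9.16 in wild type (8.81 to 9.52). H3K27me3 had 4.88 in E2f3-null cells (4.71 to 5.05) and 6.38 in wild type (6.25 to 6.52). IgG also peaked there, with a ratio of 3.13 (2.998 to 3.268), less than the ratio of each ChIP library.

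H3K27me3 reads lay over the E2F3 summit, with no dip there. Its highest bin held 13.8 reads per kb per 1000000 reads outside peaks in E2f3-null cells and 25.3 in wild type, against 2.92 for IgG. The width at the level midway between peak and surroundings was 300 bp in E2f3-null cells and 700 bp in wild type. E2F3 peaks with H3K27me3 but no HELLS peak had ratios of 3.44 in E2f3-null cells (3.38 to 3.51) and 5.67 in wild type (5.61 to 5.74). E2F3 peaks on neither other list had 1.66 in E2f3-null cells (1.62 to 1.70) and 4.37 in wild type (4.31 to 4.43).

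HELLS reads at these sites were similar in both genotypes. For HELLS, null over wild-type reads had a median log2 ratio of 0.096 (quartiles -0.15 and 0.33) at co-listed sites and 0.17 over all E2F3 peaks. A site was called lower or higher when its scaled reads differed by 2-fold or more and the interval of the ratio left out 1. By this rule 2 of 433 sites were lower, against 0.641% of all E2F3 peaks, and 6 were higher (1.39%), against 2.38% of all E2F3 peaks. Both shares lay near the background. Wild-type HELLS reads helped choose the sites, and how far this lowers the ratios was not tested. At E2F3 peaks with HELLS but no H3K27me3 peak the median was also 0.096, with 0.66% higher. With H3K27me3 but no HELLS peak it was 0.245, with 3.36% higher. Scaled to HELLS peaks listed in both genotypes, which shifts log2 ratios by 0.18, 5 were lower and 1 higher. The median turned to -0.085, and no share over all E2F3 peaks is given under that scaling.

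Most of the sites were again listed for HELLS in E2f3-null cells. An E2f3-null HELLS peak overlapped 303 of the 433 sites, or 70% (65.4 to 74.3), against 42.2% of all E2F3 peaks. That share counts sites that had a wild-type HELLS peak by choice. It was 74.6% (72.1 to 77.1) at E2F3 peaks with HELLS but no H3K27me3. At the 61 sites whose 3 wild-type peaks all had a false discovery rate of 5% or less, 41 had an E2f3-null HELLS peak and the median log2 change was 0.04. These 61 did not have the higher HELLS scores, as given above. With E2f3-null HELLS peaks of score 100 or more alone, the share among all 433 was 39.3%.

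The sites with the strongest HELLS peaks had similar HELLS reads in both genotypes. Their scores come from the wild-type reads that are also the base of the ratio, so this ranking favours low ratios. The site with the highest HELLS score was chr15:79634249-79635413 (mm9), with 77 HELLS reads in E2f3-null cells and 75 in wild type, a ratio of 1.02 (0.732 to 1.42). Its E2F3 reads were 49 in E2f3-null cells and 119 in wild type, its H3K27me3 reads 67 in E2f3-null cells and 200 in wild type, and IgG had 27. The next was chr4:124334231-124336373, with 105 HELLS reads in E2f3-null cells and 100 in wild type, a ratio of 1.04 (0.785 to 1.39). It was the longest of the 433 sites and carried one of the highest H3K27me3 scores, 3100. At chr9:75473098-75474214 HELLS had 50 reads in E2f3-null cells and 46 in wild type.

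The remaining sites of the highest HELLS scores were both on chromosome 2. At chr2:37558155-37559266 HELLS had 70 reads in E2f3-null cells and 56 in wild type, a ratio of 1.24 (0.861 to 1.80). At chr2:130866621-130867522 it had 53 and 39, a ratio of 1.35 (0.876 to 2.10). None of these 5 intervals left out 1. Among sites with 20 or more HELLS reads over both libraries, the largest rise was at chr7:29052760-29053570, with 52 reads in E2f3-null cells and 22 in wild type, a ratio of 2.347 (1.401 to 4.059). The largest fall was at chr15:50721537-50722100, where E2f3-null cells had 6 reads and wild type 18, a ratio of 0.331 (0.108 to 0.871). At chr8:13200166-13200719 HELLS had 6 reads in E2f3-null cells and 16 in wild type, and at chr17:32303582-32304112 it had 9 and 19, and both intervals included 1. At chr17:8993392-8993918 it had 29 reads in E2f3-null cells and 13 in wild type, a ratio of 2.215 (1.12 to 4.64).

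E2F3 antibody reads, scaled by reads outside peaks, were lower in E2f3-null cells at 420 of the 433 sites. The same held at 8840 of all 8889 E2F3 peaks, so the fall was not particular to co-listed sites. At co-listed sites the log2 ratio of these reads had a median of -1.05 (quartiles -1.47 and -0.66), against -1.53 over all E2F3 peaks. By the rule above 216 of 433 sites (49.9%) were lower, against 73.3% of all E2F3 peaks, and 0 were higher. E2F3 peaks with H3K27me3 but no HELLS peak were close to this, with 54.5% lower and a median of -1.215. Those with HELLS but no H3K27me3 peak had 77.2% lower and a median of -1.44. Wild-type reads chose the peaks, and how much of these low ratios comes with that choice was not tested.

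**Figure D3:**
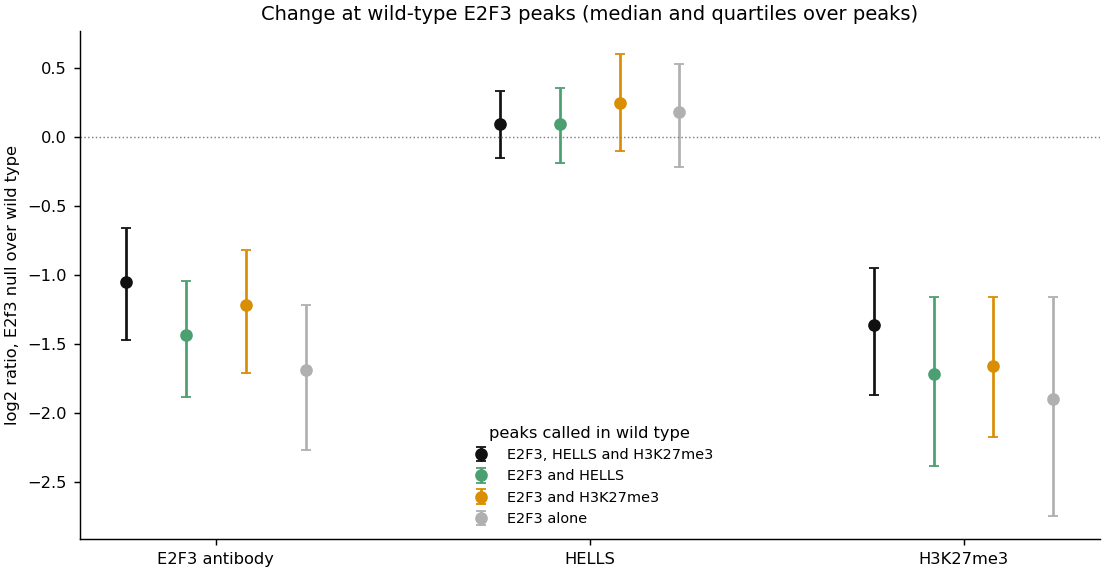
Median (points) and quartiles (bars) over peaks of log2 reads in E2f3-null over wild-type libraries, for each antibody and each class of wild-type E2F3 peak. The co-listed sites (black) have medians of -1.05 for the E2F3 antibody, 0.096 for HELLS and -1.37 for H3K27me3. The wild-type libraries chose the classes, and all 3 signs can turn under another scaling.

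The share of lower sites was smaller than at other E2F3 peaks in all 4 quartiles of E2F3 score, with no test between them. In the lowest score quartile, 15.2% of 79 co-listed sites and 46.3% of 2135 other E2F3 peaks were lower. In the highest these were 89.0% of 118 and 98.0% of 2105. The median log2 ratios there were -1.496 at co-listed sites and -2.001 at the others. The E2f3-null library itself was higher at co-listed sites in each quartile. Its median log2 enrichments over IgG were between 1.13 and 1.38, against 0.58 to 0.96 at the other peaks. Over all scores it stood at 1.26 at co-listed sites and at 1.19 at E2F3 peaks with HELLS but no H3K27me3 peak, so this was not particular to co-listed sites.

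The E2F3 calls depended on the scaling. Scaled to peaks listed in both genotypes for this antibody, which shifts log2 ratios by -1.16, 21 sites were lower and 20 higher, and the median was 0.11. That scaling takes out any change common to the shared peaks. Under it no share over all E2F3 peaks is given, so these counts have no background beside them. An E2F3-antibody peak of E2f3-null cells overlapped 178 sites, or 41.1% (36.4 to 45.9), against 28.3% of all E2F3 peaks. E2F3 peaks with HELLS but no H3K27me3 had 54.9% (52.1 to 57.7). With E2f3-null peaks of score 100 or more, the share at co-listed sites was 11.3%.

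The sites with the highest E2F3 scores had low E2F3 ratios. These scores come from the wild-type reads that are also the base of the ratio, so the ranking itself favours low ratios. The first was chr14:115439675-115441539, with 56 reads in E2f3-null cells and 222 in wild type, a ratio of 0.262 (0.192 to 0.353). Its HELLS reads were 80 in E2f3-null cells and 89 in wild type, and its H3K27me3 reads 26 and 66. The next was chr2:152239711-152240804, with 18 E2F3 reads in E2f3-null cells and 122 in wild type, a ratio of 0.153 (0.0879 to 0.253). HELLS had 32 reads there in E2f3-null cells and 21 in wild type. The E2F3 reads were lower in E2f3-null cells while the HELLS interval included 1 at both.

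The other sites of high E2F3 score had like values. At chr17:80772339-80773457 there were 34 E2F3 reads in E2f3-null cells and 182 in wild type, a ratio of 0.194 (0.131 to 0.281), and 50 and 44 HELLS reads. At chr9:51572834-51573796 there were 33 and 151 E2F3 reads and 46 and 52 HELLS reads. At chr18:36440201-36441314 there were 29 and 155 E2F3 reads, and HELLS had 76 in E2f3-null cells and 48 in wild type, a ratio of 1.57 (1.08 to 2.31).

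The lowest E2F3 ratio among sites with 20 or more E2F3 reads over both libraries was at chr12:118392171-118392704, with 2 reads in E2f3-null cells and 25 in wild type, a ratio of 0.0831 (0.00954 to 0.333). HELLS had 16 reads in E2f3-null cells and 19 in wild type at that site, and H3K27me3 had 37 and 80. The highest ratio was at chr5:140022826-140023615, with 26 reads in E2f3-null cells and 20 in wild type, a ratio of 1.35 (0.725 to 2.55). Its H3K27me3 domain was 31778 bp long. Its E2F3 score was 63.19, in the lowest quartile.

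Other extremes of the E2F3 ratio rested on few reads. At chr17:26813163-26813620 there were 3 E2F3 reads in E2f3-null cells and 26 in wild type, and at chr17:45570033-45570681 there were 6 and 52. At chr5:24191671-24192065 there were 16 E2F3 reads in E2f3-null cells and 14 in wild type, a ratio of 1.19 (0.543 to 2.63), while H3K27me3 had 0 and 12. At chr14:19159457-19159867 there were 11 and 10, a ratio of 1.14 (0.441 to 3.002), while H3K27me3 had 0 and 11.

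H3K27me3 reads, scaled by reads outside peaks, were lower in E2f3-null cells at most of the sites, but also at E2F3 peaks without an H3K27me3 peak. The log2 ratio had a median of -1.37 (quartiles -1.87 and -0.95) at co-listed sites and -1.76 over all E2F3 peaks. Of 433 sites 296 (68.4%) were lower, against 48.7% of all E2F3 peaks, and 0 were higher. The share was larger, 78.3%, among E2F3 peaks with H3K27me3 but no HELLS peak, whose ratios had a log2 median of -1.66. Over all E2F3 peaks the median H3K27me3 count was 2 reads in E2f3-null cells and 12 in wild type. How far such low counts limited the calls was not tested. At the 7046 E2F3 peaks with no H3K27me3 peak in either genotype the log2 ratio had a median of -1.90, and 41.7% were lower.

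The unlisted peaks show how the libraries differed away from H3K27me3 peaks. There the wild-type H3K27me3 library stood at a median log2 enrichment of 0.14 over IgG, with 10 reads per peak, and the E2f3-null library at -1.75, with 1 read. At co-listed sites the E2f3-null library stood at 1.27. The part of this difference in the H3K27me3 result was not tested. Scaled to those unlisted peaks instead, an alternative added after the data were seen, 0 co-listed sites were lower and 82 higher, and the median log2 ratio was 0.53. Scaled to H3K27me3 peaks listed in both genotypes, a shift of -1.01, 52 were lower and 0 higher, with a median of -0.35. The direction of the H3K27me3 change thus turned with the scaling. For neither alternative is a share over all E2F3 peaks given. Whether these counts are particular to co-listed sites was not tested.

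The order of the sites by H3K27me3 was alike in both genotypes. Across the 433 sites the enrichments over IgG of the E2f3-null and the wild-type H3K27me3 libraries had a Spearman correlation of 0.904, where both share the IgG reads. For HELLS this was 0.619 and for the E2F3 antibody 0.427. The log2 changes of E2F3 and H3K27me3 had a correlation of 0.0835, those of E2F3 and HELLS 0.0455, and those of HELLS and H3K27me3 0.23. Over all 8889 E2F3 peaks the last pair had 0.00966. These correlations rest on sparse counts and are given as a description.

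An H3K27me3 peak of E2f3-null cells overlapped 219 of the 433 sites, or 50.6% (45.8 to 55.4), against 9.19% of all E2F3 peaks. The share was 42.0% (39.4 to 44.6) at E2F3 peaks with H3K27me3 but no HELLS peak. The sites on this list had the stronger wild-type H3K27me3 signal. Their E2f3-null enrichments come from the same reads that called the list, so the E2f3-null difference below follows from the split. The 219 with an E2f3-null peak had a median log2 enrichment of 2.38 in E2f3-null cells and 3.58 in wild type, and a median wild-type H3K27me3 score of 898.2. The 214 without one had 0.15 in E2f3-null cells and 1.82 in wild type, and a score of 108.6.

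**Figure D4:**
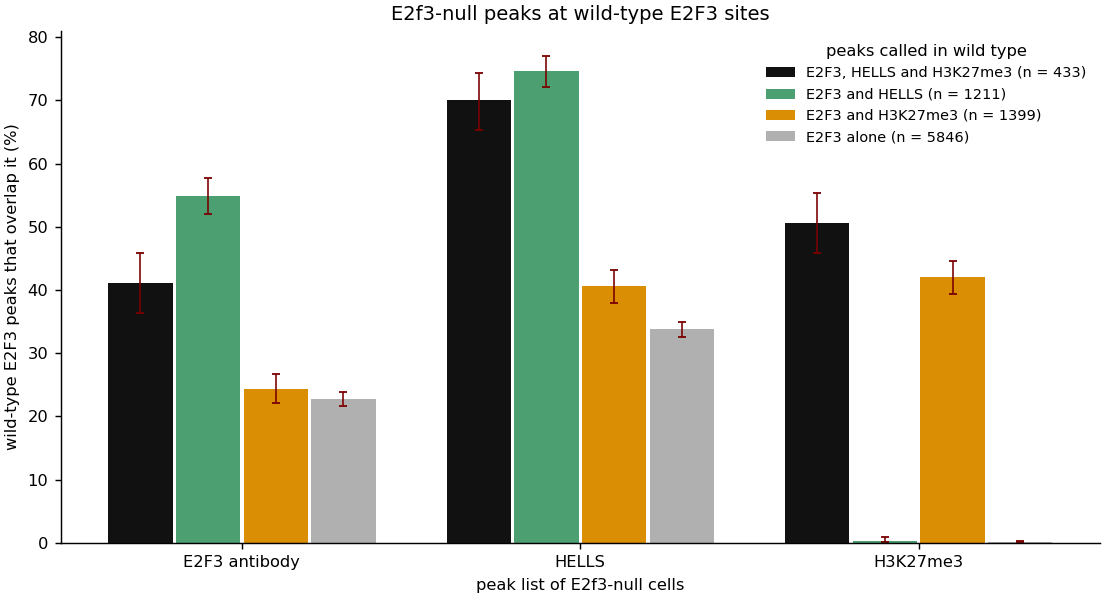
Share of wild-type E2F3 peaks that overlap a peak of each E2f3-null list, by the wild-type lists they were on. Error bars are exact 95% intervals of the share. The black bars, the 433 co-listed sites, stand at 41.1% for the E2F3 antibody, 70% for HELLS and 50.6% for H3K27me3.

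The E2f3-null lists met on a minority of the sites. All 3 E2f3-null lists covered 99 sites, or 22.9% (19 to 27.1), against 3.14% of all E2F3 peaks. E2F3 peaks with H3K27me3 but no HELLS peak had 12.5% (10.8 to 14.4). On none of the 3 lists were 78 sites (18.0%), against 50.2% of all E2F3 peaks. E2F3 peaks with HELLS but no H3K27me3 peak had 20.7% on none. HELLS and H3K27me3 without an E2F3-antibody peak remained at 79 sites (18.2%), and HELLS with the E2F3 antibody but without H3K27me3 at 63 (14.5%). The least common pattern was the E2F3 antibody and H3K27me3 without HELLS, at 5 sites. Where E2f3-null cells had an E2F3-antibody peak, they had a HELLS peak at 162 of 178 sites (91.0%), against 141 of 255 without one (55.3%). The 178 also had higher wild-type scores, with medians of 187.1 against 127.0 for E2F3 and 74.8 against 67.4 for HELLS. For these 2 shares and the single patterns no share over all E2F3 peaks is given. Whether they are particular to co-listed sites was not tested.

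Most of the sites lay in short stretches of H3K27me3. Joined across gaps of up to 5 kb, the wild-type H3K27me3 peaks at co-listed sites formed domains with a median length of 1623 bp (quartiles 949 and 4418, longest 68787). In all, 249 sites (57.5%) lay in domains of up to 2 kb and 58 (13.4%) in domains over 10 kb. E2F3 peaks with H3K27me3 but no HELLS had a median of 1870 bp, with 12.3% over 10 kb. With a joining gap of 2 kb 21 sites lay in domains over 10 kb, and with 10 kb 102.

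H3K27me3 in E2f3-null cells went with the length of the domain. The 118 sites in domains of up to 1000 bp had a median log2 enrichment of -0.12 in E2f3-null cells and 1.72 in wild type, and 22 of them (18.6%) had an E2f3-null H3K27me3 peak. The 131 sites in domains over 1000 and up to 2000 bp had 1.21 in E2f3-null cells and 2.53 in wild type. The 58 sites in domains over 10 kb had 2.53 in E2f3-null cells and 3.80 in wild type, and 46 (79.3%) had an E2f3-null peak. Across the 433 sites domain length and E2f3-null H3K27me3 enrichment had a Spearman correlation of 0.541. These lengths come from the wild-type reads.

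**Figure D5:**
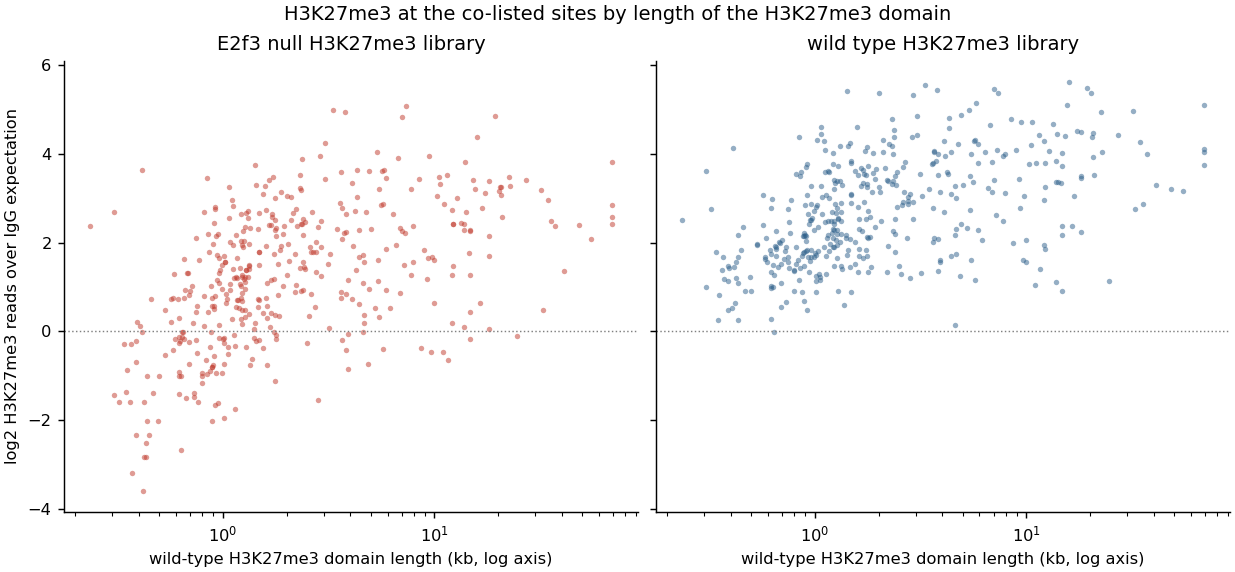
Each point is 1 of the 433 sites. The x axis is the length in kb of the wild-type H3K27me3 domain on a log axis, and the y axis the log2 enrichment of H3K27me3 reads over IgG in the E2f3-null (left) and wild-type (right) library. Sites in domains of up to 1000 bp have medians of -0.12 in E2f3-null cells and 1.72 in wild type.

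HELLS enrichment showed no order by domain length. Its median log2 enrichment in E2f3-null cells was 1.47 in the shortest domains, 1.63 at 1000 to 2000 bp and 1.52 over 10 kb. In wild type it was 1.48 in the shortest domains and 1.43 in those over 10 kb, and the Spearman correlation with domain length was 0.0368 in E2f3-null cells. An E2f3-null HELLS peak was listed at 55.9% of sites in domains of up to 1000 bp, 80.2% at 1000 to 2000 bp, 73.6% at 2000 to 5000 bp, 76.9% at 5000 to 10000 bp and 65.5% over that. For the E2F3 antibody the E2f3-null medians were 1.29 in the shortest domains and 0.94 in those over 10 kb, with no steady order between. Its E2f3-null peaks were listed at 33.9%, 54.2%, 44.8%, 35.9% and 24.1% of sites from the shortest to the longest class. Both lists were thus most frequent at 1000 to 2000 bp.

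The shape of the H3K27me3 signal differed between these groups. In domains of up to 1000 bp the ratio of summit to flank density was 4.51 in E2f3-null cells (4.05 to 5.03) and 11.1 in wild type (10.3 to 11.9). In domains over 10 kb it was 4.02 in E2f3-null cells (3.753 to 4.297) and 4.42 in wild type (4.24 to 4.61). IgG had 3.54 (3.24 to 3.87) in the shortest and 2.48 (2.20 to 2.78) in the longest. The H3K27me3 reads were thus concentrated at the E2F3 summit inside long domains too, as the IgG reads were to a smaller ratio.

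The authors' H3K27me3 score was tied at its upper end: 3 co-listed sites had scores over 3100 and 8 had exactly 3100. Of the 8, the first 2 by chromosome name are described with the 3 above them. The highest was chr2:146910074-146910998, with 132 H3K27me3 reads in E2f3-null cells and 280 in wild type, a ratio of 0.633 (0.511 to 0.781), beside 22 IgG reads. Its E2F3 reads were 27 in E2f3-null cells and 40 in wild type, and its HELLS reads 53 and 35. At chr12:114166590-114168125 there were 157 and 462 H3K27me3 reads, a ratio of 0.456 (0.378 to 0.548), in a domain of 20376 bp. HELLS had 85 reads in E2f3-null cells and 74 in wild type there. On both the E2F3 interval included 1.

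The next sites by H3K27me3 score differed in their H3K27me3 ratios, scaled by reads outside peaks. At the first of them the log2 ratio turned positive under both other scalings named above. At chr5:37259609-37260104 there were 57 H3K27me3 reads in E2f3-null cells and 111 in wild type, a ratio of 0.690 (0.492 to 0.958), against 3 IgG reads. At chr10:19570184-19571137 there were 36 and 195, a ratio of 0.248 (0.169 to 0.355). Its E2F3-antibody reads were 30 in E2f3-null cells and 31 in wild type. At chr12:57634072-57634489 there were 22 and 133 H3K27me3 reads, a ratio of 0.222 (0.135 to 0.351). All these sites had an E2f3-null H3K27me3 peak.

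Among sites with 20 or more H3K27me3 reads over both libraries, domains of under 1000 bp held the 3 lowest H3K27me3 ratios and 2 of the 3 highest. The lowest was at chr8:112603520-112603951, with 1 read in E2f3-null cells and 27 in wild type, a ratio of 0.0497 (0.00121 to 0.302). HELLS had 21 reads in E2f3-null cells and 9 in wild type at that site, among the 3 largest HELLS rises. At chr4:54957817-54958355 there were 1 and 26 H3K27me3 reads, and at chr16:93711706-93712658 there were 1 and 25. The highest ratio was at chr15:87454265-87455327, with 61 reads in E2f3-null cells and 83 in wild type, a ratio of 0.987 (0.697 to 1.39). Next came chr19:21985754-21986039 with 10 H3K27me3 reads in E2f3-null cells and 14 in wild type, and chr4:146035020-146035339 with 10 and 15.

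The edge of the rule was narrow. The co-listed site with the least overlap was chr3:21974649-21975402, which shared 17 bp with its HELLS peak. Another, chr3:84283598-84283838, shared 61 bp and had 1 HELLS read in E2f3-null cells and 3 in wild type. The first had 24 HELLS reads in E2f3-null cells and 15 in wild type. Its neighbour chr3:21975491-21976382 lay on the same HELLS peak but stopped 69 bp short of an H3K27me3 peak and fell outside the rule, with 57 HELLS reads in E2f3-null cells and 48 in wild type, and 3 and 19 H3K27me3 reads. The peak chr2:140220797-140221428 stopped 7 bp short, with 1 H3K27me3 read in E2f3-null cells and 10 in wild type. Of the 1211 E2F3 and HELLS peaks without H3K27me3, 13 lay within 1 kb of an H3K27me3 peak, and the median gap was 89025 bp.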

How the data were processed

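The authors deposited aligned reads as positions and strands. The build is mm9, as the submitters' processing notes state. The aligner is not given in the sources used here. Per the file headers, MACS 1.4.0beta called the peaks of each library, at a p cutoff of 1e-05, using IgG of the matching genotype name. For each peak the deposited tables hold a tag count, a score, a fold ratio and a false discovery rate in percent, and the deposited summit files give the signal height. These were used only to describe, rank or filter peaks.

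Repeated reads of the same position and strand were reduced to 1, and each read was shifted 60 bp towards the fragment centre. Reads were counted in all 8889 wild-type E2F3 peaks and scaled by reads outside the 27092 peak regions of the series. Ratios carry exact conditional binomial 95% intervals, and shares exact Clopper-Pearson 95% intervals. For log2 values 0.5 was added to the counts. The depth per library limits single sites, since the median IgG count was 12 reads. Python 3.11.15 with numpy 2.4.6 and scipy 1.17.1 was used.

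Named sites were the 5 highest by the authors' score in each list, the extremes of each ratio among sites with 20 or more reads, and those at the edge of the overlap rule. The sites, classes and rules were chosen with earlier results of these data known. Domain length classes were set after the values were seen. Neither gene names nor sequences are given, since no mm9 annotation or genome was used here. Alternatives covered duplicates, scaling, threshold, window, overlap and joining gap.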

Additional observations from a re-analysis of the deposited data

How the results depend on the processing

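With 1 library per group, neither leaving out a replicate nor a replicate test could be run. No paired analysis was possible because each group had 1 library. The number of co-listed sites was 243 with all summits within 250 bp of the E2F3 summit, 51 with scores of 100 or more and 61 with false discovery rates of 5% or less. Scaling by all distinct reads gave median log2 ratios of -0.96 for E2F3 and -1.22 for H3K27me3. Scaling to peaks listed in both genotypes gave 21 lower, 20 higher and a median of 0.11 for E2F3, 5 lower, 1 higher and -0.085 for HELLS, and 52 lower and -0.35 for H3K27me3. Scaling H3K27me3 to unlisted E2F3 peaks, added later, gave 0 lower, 82 higher and 0.53. These shifts follow from the scaling itself. No shares over all E2F3 peaks are given under these scalings. Among sites of score 100 or more, 30 were lower for E2F3, 0 lower and 0 higher for HELLS, and 33 lower for H3K27me3 with a median of -1.15. The lower counts follow from fewer sites, and the cause of the moved median was not tested. For HELLS a 1.5-fold threshold gave 4 lower and 17 higher, 2-fold without an interval 17 lower, and the summit window 4 lower and 11 higher. The cause was not tested.

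The H3K27me3 log2 ratio turned positive under the scaling to peaks listed in both genotypes on chromosome 15 from 87454265 (1.00), chromosome 2 from 146910074 (0.36) and chromosome 5 from 37259609 (0.49). It also did so on chromosome 19 from 21985754 (0.97) and chromosome 4 from 146035020 (0.88). Under the scaling to unlisted peaks the ratio at these sites was, in the same order, 1.88, 1.24, 1.37, 1.86 and 1.76. On chromosome 12 from 114166590 it was then 0.77. E2f3-null peaks of score 100 or more gave E2F3, HELLS and H3K27me3 shares of 11.3%, 39.3% and 36.5%, and those of false discovery rate 5% or less 30.0% for E2F3 and 36.0% for H3K27me3. In the summit window median log2 enrichments were 1.31 for E2F3 and 1.71 for HELLS in E2f3-null cells, and 2.44 and 1.62 in wild type. Wild-type E2F3 had 2.20 with scaling by all reads. With flanks of 2000 to 4000 bp the summit ratios were 9.88 (E2F3), 13.45 (HELLS) and 7.11 (H3K27me3) in E2f3-null cells, 22.5, 11.3 and 10.9 in wild type, and 3.88 for IgG. Domains over 10 kb held 21 sites with a 2 kb joining gap and 102 with 10 kb. For the results over all co-listed sites, the other 91 values stayed within the limits set for a change. For single sites 270 values were counted as the same, 12 as weaker, 5 as stronger and 9 as reversed. A value without a call could also count as the same. Scaled to peaks listed in both genotypes, the HELLS log2 ratios at chr17:8993392-8993918 (0.94) and chr8:112603520-112603951 (0.99) lost their call, and E2F3 at chr5:140022826-140023615 (1.59) gained one.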
